A study of Mus musculus with 6 samples.

Results

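The guanylate-binding proteins are large interferon-inducible GTPases of the dynamin superfamily, and 5 genes of the family, Gbp2, Gbp3, Gbp5, Gbp6 and Gbp7, were taken by symbol from the 12969 genes of the deposited table. Bulk RNA-seq libraries came from the infarcts of Irf3KO mice, labelled IRF3-/-, and of WT mice of strain C57BL/6, 3 libraries in each group. The labels give neither the strain of the Irf3KO mice nor the part of the gene that was deleted. All animals were male, about 12 weeks old, and had undergone permanent suture ligation of the left anterior coronary artery 4 days earlier. The product of Irf3 is phosphorylated downstream of nucleic acid sensors and then drives transcription of type I interferon and antiviral genes. The study's question is which infarct transcripts differ without this gene.

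Interferons act through JAK kinases and STAT factors on promoters that hold interferon-stimulated response elements or gamma-activated sites, and Gbp genes are classical targets of interferon gamma that also respond to type I interferon. The proteins hydrolyse GTP, assemble on membranes, and coat pathogen vacuoles and bacterial surfaces, where they expose microbial ligands to inflammasomes. Mouse Gbp2 and Gbp5 carry a C-terminal prenyl anchor. In infarcts, interferon-induced transcripts are known from infiltrating macrophages and neutrophils. In bulk tissue, fewer cells of a type and less RNA per cell cannot be told apart.

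The mouse family lies in 2 clusters. In the RefSeq order of GRCm38.p6, Gbp5, Gbp7, Gbp3, Gbp2b and Gbp2 follow each other on chromosome 3, and Gbp8, Gbp9, Gbp4, Gbp10 and Gbp6 on chromosome 5. The table also held Gbp4 and Gbp9, while Gbp2b, Gbp8, Gbp10 and Gbp11 are not analysed here. The 4 members on chromosome 3 matched an entry of the RefSeq promoter sequences (build GRCm38.p6, plus strand), and Gbp6 did not. Their 250 bases before the transcription start are shown because these windows share a motif. Whether the motif bears on the levels in Irf3KO was not tested. The windows are chr3:142620413-142620662 for Gbp2, chr3:142559794-142560043 for the first of 2 start sites of Gbp3, chr3:142496684-142496933 for Gbp5 and chr3:142530086-142530335 for Gbp7. Capitals mark matches to GAAANNGAAA, the core of the interferon-stimulated response element, searched on both strands and here read as TTTCNNTTTC.
Gbp2: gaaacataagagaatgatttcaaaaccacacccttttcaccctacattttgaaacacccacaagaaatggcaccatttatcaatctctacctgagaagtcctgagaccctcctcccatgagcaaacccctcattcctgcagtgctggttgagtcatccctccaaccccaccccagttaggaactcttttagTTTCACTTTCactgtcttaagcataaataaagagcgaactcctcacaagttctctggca
Gbp3: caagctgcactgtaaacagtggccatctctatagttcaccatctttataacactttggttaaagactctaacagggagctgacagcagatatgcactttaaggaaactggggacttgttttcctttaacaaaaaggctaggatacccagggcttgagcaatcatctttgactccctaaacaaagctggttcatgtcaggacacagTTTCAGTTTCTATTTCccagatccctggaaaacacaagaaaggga
Gbp7: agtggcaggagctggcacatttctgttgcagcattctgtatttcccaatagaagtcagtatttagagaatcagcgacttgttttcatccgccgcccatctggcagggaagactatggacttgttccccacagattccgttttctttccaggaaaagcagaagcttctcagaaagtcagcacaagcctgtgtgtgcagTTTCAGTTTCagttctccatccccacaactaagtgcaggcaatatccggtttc
Gbp5: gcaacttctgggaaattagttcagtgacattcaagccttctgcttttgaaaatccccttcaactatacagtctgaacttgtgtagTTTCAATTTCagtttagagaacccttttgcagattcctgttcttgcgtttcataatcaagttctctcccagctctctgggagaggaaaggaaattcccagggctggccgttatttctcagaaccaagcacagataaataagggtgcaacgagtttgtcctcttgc
The match ran over bases 59 to 50 before the start in Gbp2, 53 to 44 in Gbp7 and 165 to 156 in Gbp5. Gbp3 held 2 overlapping matches, at 45 to 36 and at 39 to 30 bases before its first start site. The window of its second start site held none. The same motif was found in 2.98% of the 32851 windows of this length in the RefSeq table. TTCNNNGAA, the core of the gamma-activated site, had 2 matches each in Gbp5 and Gbp7 and none in the Gbp2 and Gbp3 windows, against 7.02% of all windows with at least 1 match. These matches describe letters in the windows, and binding was not measured.

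Irf3, the targeted gene, was still read in the Irf3KO libraries, at 7.4, 8.74 and 7.68 RPKM, against 13.76, 13.87 and 11.56 RPKM in WT (log2 fold change -0.65 ± 0.18, SE; limma adjusted p = 0.344). Irf3KO replicate 2 stood apart in cell markers. Its median over the marker list was the lowest of the 6 libraries for 7 of 8 cell types, among them monocytes and macrophages at -1.40 relative to the WT mean of log2(RPKM + 1), against 0.26 and 0.06 in Irf3KO replicates 1 and 3 and -0.25 to 0.48 in WT. The cardiomyocyte median was instead the highest of the 6 in Irf3KO replicate 2, at 0.88, against -0.78 to 0.70 in the others. Of all genes tested, 52.2% were lowest in this library. In Irf3KO replicates 1 and 3 the Gbp members lay between -1.34 and -0.43 on this scale, while the T and NK cell median was at -0.56 and -0.40 there and the fibroblast median at -0.40 and -0.27. The summed level of the 9 of 10 macrophage markers in the table was 1192 to 4539 RPKM in Irf3KO and 2248 to 4144 RPKM in WT, overlapping. Cardiomyocyte markers (7 of 7) summed to 10359 to 16183 RPKM in Irf3KO and 5199 to 14031 RPKM in WT.

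Every Gbp member was lower in each Irf3KO library than in each WT library. Values are RPKM, read counts scaled to gene length and library size. Gbp2, which with Gbp5 helps release bacterial DNA and lipopolysaccharide to inflammasomes in mouse macrophages, stood at 15.72, 3.96 and 12.82 RPKM in Irf3KO libraries 1 to 3, against 27.5, 20.73 and 31.08 RPKM in WT libraries 1 to 3. The mean was 2.44-fold lower in Irf3KO, at 10.8 ± 6.13 RPKM against 26.4 ± 5.26 RPKM in WT (SD, n = 3 each). Among the Irf3KO libraries, replicate 2 was far below the others, and the highest lay below the lowest WT value.

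Gbp3, a chromosome 3 member next to Gbp7, stood at 6.78, 2.17 and 5.3 RPKM in Irf3KO, against 15.65, 12.56 and 16.99 RPKM in WT. Its mean was 3.17-fold lower, at 4.75 ± 2.35 RPKM in Irf3KO and 15.1 ± 2.27 RPKM in WT (SD, n = 3 each). The gap between the groups was wider than the range within either of them. Gbp7, which in mouse macrophages has been linked to assembly of the NADPH oxidase on vacuoles, stood at 5.48, 1.17 and 3.87 RPKM in Irf3KO, against 9.85, 9.4 and 10.79 RPKM in WT. WT libraries differed little and Irf3KO libraries widely, with means of 3.51 ± 2.18 RPKM in Irf3KO and 10.01 ± 0.709 RPKM in WT (SD, n = 3 each), 2.86-fold lower in Irf3KO.

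Gbp5, described in mouse macrophages as a promoter of NLRP3 inflammasome assembly, stood at 3.34, 1.28 and 2.5 RPKM in Irf3KO, against 4.47, 5.23 and 4.88 RPKM in WT. Its mean difference was the smallest of the 5 members as a ratio, 2.05-fold lower in Irf3KO (2.37 ± 1.04 RPKM, against 4.86 ± 0.380 RPKM in WT; SD, n = 3 each). Gbp6, the chromosome 5 member, stood at 1.02, 0.55 and 1.03 RPKM in Irf3KO, against 2.2, 2.46 and 5.13 RPKM in WT. Here the spread was on the WT side, where library 3 stood above the others, and the mean was 3.77-fold lower in Irf3KO (0.867 ± 0.274 RPKM, against 3.26 ± 1.62 RPKM in WT; SD, n = 3 each). Groups that did not overlap in this direction were found for 5 of 5 members, and for 11.8% of the 12913 genes tested.

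**Figure D1:**
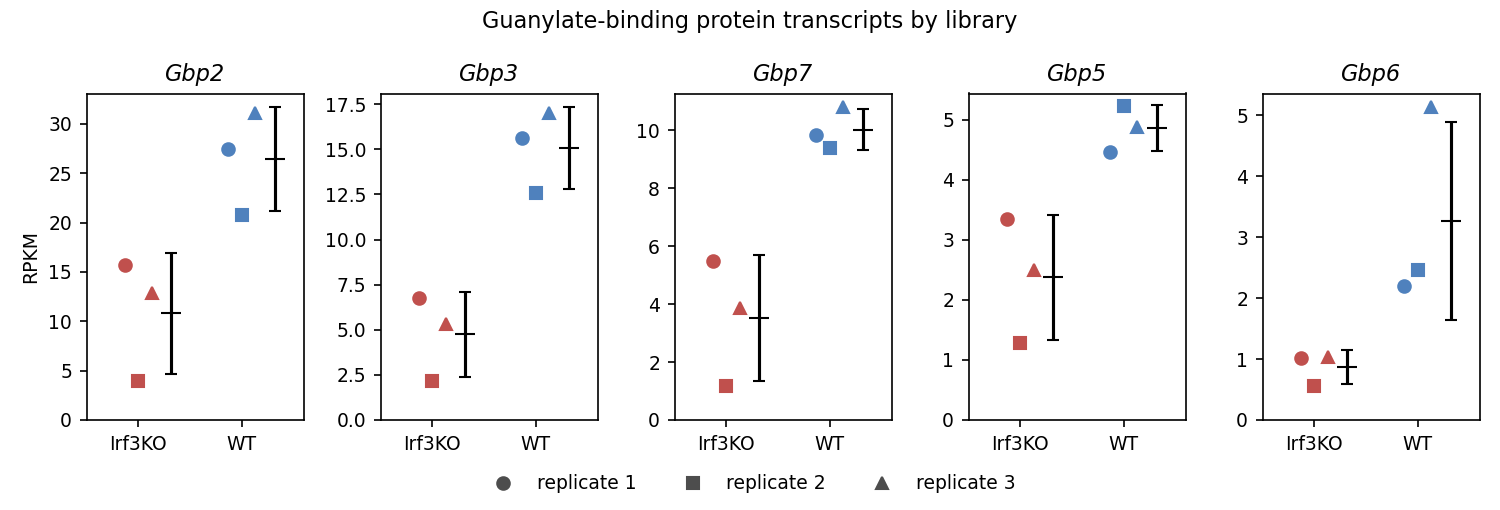
RPKM of Gbp2, Gbp3, Gbp7, Gbp5 and Gbp6 (one panel each, linear axes from 0) in the 3 Irf3KO libraries (red, left) and the 3 WT libraries (blue, right); the marker shape gives the replicate number and black bars the mean and SD. In each panel the red points lie below the blue points, and Irf3KO replicate 2 is the lowest.

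Steps between low values gave depths of 14.8, 18.1 and 62.0 M reads in genes for Irf3KO libraries 1 to 3 and 18.9, 20.8 and 15.7 M for WT libraries 1 to 3. At these depths the smallest member value, Gbp6 in Irf3KO library 2, rested on about 43 reads (exact Poisson 95% interval 31.1 to 57.9, counting error only). Gbp6 in WT library 3 rested on about 348 reads, and Gbp2 in Irf3KO library 2 on about 180. Gbp2 rested on 585 reads or more in each of the other libraries.

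After adjustment over all genes none of these differences passed the test. The 12913 genes that averaged 1 RPKM or more were tested on log2(RPKM + 1) with limma, Irf3KO against WT, with Benjamini-Hochberg adjustment over all of them. The added 1 makes changes of weakly expressed genes look smaller than they are. The log2 fold change was -1.57 ± 0.33 for Gbp3 (SE; limma adjusted p = 0.129) and -1.43 ± 0.37 for Gbp7 (limma adjusted p = 0.295). It was -1.37 ± 0.43 for Gbp2 (limma adjusted p = 0.446), -1.14 ± 0.27 for Gbp6 (limma adjusted p = 0.208) and -0.84 ± 0.25 for Gbp5 (limma adjusted p = 0.428). At an adjusted p under 0.05, limma called 0 of 5 members, and 0.503% of all genes (0.356% lower). At an unadjusted limma p under 0.05 all 5 members were lower, as were 5.96% of all genes. The members' median was -1.37 and that of all tested genes -0.09. For any single gene, 3 against 3 libraries allow an exact permutation p of 0.1 at the smallest. The labels do not tie libraries to separate animals beyond their numbers. The limma p-values set the difference between groups against the spread within them, in these libraries only.

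Irf3KO replicate 2 weighed on each of these values. It was the lowest of the 6 libraries for 5 of 5 members and for 52.2% of all genes. Without it Gbp3 fell (log2 fold change -1.19 ± 0.17, limma adjusted p = 0.0382), the 1 member of 5 called, beside 0.743% of all genes (0.534% lower). Gbp7 was then at -0.97 ± 0.16 (limma adjusted p = 0.0623), Gbp6 at -1.01 ± 0.28 (limma adjusted p = 0.343), Gbp2 at -0.83 ± 0.20 (limma adjusted p = 0.244) and Gbp5 at -0.59 ± 0.15 (limma adjusted p = 0.284). The standard errors of Gbp2, Gbp3, Gbp5 and Gbp7 were smaller than with all libraries, and so were the fold changes. All 5 members had an unadjusted limma p under 0.05 in this fit too, against 5.29% of all genes that were lower, and the members' median was -0.97 beside 0.01 for all genes. Weighting the libraries by their estimated variance called 5 of 5 members lower, beside 13.6% of all genes (22.9% in either direction). That fit rested mostly on Irf3KO replicate 3 and WT replicate 2, with weights of 6.36 and 4.4, against 0.103 to 1 for the others. Quantile normalization called 1 lower, beside 0.581% (0.805% in either direction).

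**Figure D2:**
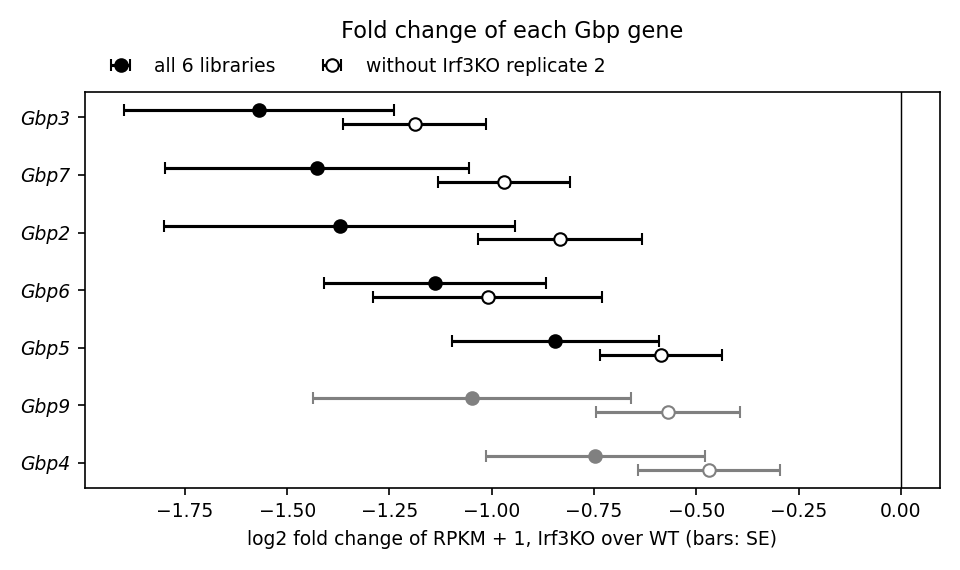
log2 fold change of RPKM + 1, Irf3KO over WT, with SE, for the 5 members (black) and for Gbp9 and Gbp4 (grey), with all 6 libraries (filled) and without Irf3KO replicate 2 (open). The fitted values lie below 0 for each gene, and those without replicate 2 lie closer to 0, as for Gbp2 at -0.83 against -1.37 with all libraries.

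The order of the members by mean RPKM was the same in both groups, Gbp2, Gbp3, Gbp7, Gbp5 and Gbp6. Single libraries departed from it. Gbp5 (1.28 RPKM) was above Gbp7 (1.17 RPKM) in Irf3KO replicate 2, and Gbp6 (5.13 RPKM) above Gbp5 (4.88 RPKM) in WT replicate 3. In Irf3KO the ranges of neighbouring members overlapped except between Gbp5 (1.28 to 3.34 RPKM) and Gbp6 (0.55 to 1.03 RPKM). In WT the ranges of neighbouring members were separate, except that Gbp5 (4.47 to 5.23 RPKM) and Gbp6 (2.2 to 5.13 RPKM) overlapped. The summed level of the 5 members was 32.34, 9.13 and 25.52 RPKM in Irf3KO and 59.67, 50.38 and 68.87 RPKM in WT. Gbp2 made up 43.4% to 50.2% of this sum in Irf3KO and 41.1% to 46.1% in WT. These shares overlapped, as did those of Gbp5, Gbp6 and Gbp7. The Gbp3 share was 20.8% to 23.8% in Irf3KO and 24.7% to 26.2% in WT, without overlap.

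The fold changes of the members were compared in pairs within libraries. Of the 10 pairs, 2 had groups that did not overlap, both involving Gbp5. On the log2(RPKM + 1) scale the difference of fold changes was -0.73 for Gbp3 minus Gbp5 and 0.58 for Gbp5 minus Gbp7 (exact permutation p = 0.1 each, the smallest the design allows, adjusted p = 0.5 over the 10 pairs). No pair could pass at this size. The added 1 shrinks ratios more at the lower level of Gbp5. With 0.1 added in its place, Gbp5 was still nearest to no change of these genes. The log2 fold changes were then -1.10 for Gbp5, -1.78 for Gbp3 and -1.73 for Gbp7.

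Sequence shared between family members limits how well reads can be assigned. Of the different runs of 50 bases in GENCODE M21 transcripts, Gbp5 shared 0% with any other Gbp gene, Gbp2 2.03%, Gbp7 2.26% and Gbp3 3.75%. Gbp6 shared 49.9%, and 45.9% with Gbp10 alone. The treatment of reads with several matches is not stated, so the Gbp6 values are uncertain as to which copy they measure. Gbp9 shared 8.05% and Gbp4 7.53%.

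Gbp9 and Gbp4, family members of chromosome 5, were also lower in each Irf3KO library than in each WT library. Gbp9 stood at 6.1, 1.25 and 4.25 RPKM in Irf3KO, against 7.83, 7.27 and 9.16 RPKM in WT (log2 fold change -1.05 ± 0.39, limma adjusted p = 0.556). Gbp4 stood at 2.29, 0.63 and 1.56 RPKM in Irf3KO, against 2.5, 3.26 and 3.35 RPKM in WT (-0.75 ± 0.27, limma adjusted p = 0.547). Neither overlapped between groups, and in both Irf3KO replicate 1 was the nearest to WT. Without Irf3KO replicate 2 the log2 fold changes were -0.57 ± 0.18 for Gbp9 and -0.47 ± 0.17 for Gbp4 (limma adjusted p = 0.423 and 0.556). Genes flanking the 2 clusters were compared as neighbours. Of the 3 nearest genes of the table on each side of each cluster, 12 in all, limma called 0 (0 at an unadjusted p under 0.05) and 10 overlapped between groups. The other 2 lie before the chromosome 5 cluster and differ in opposite directions. Of all genes tested, 11.8% were lower in each Irf3KO library than in each WT library. D930016D06Rik was lower in each Irf3KO library, at 1.11 ± 0.626 RPKM against 2.07 ± 0.497 RPKM in WT, and Zfp951 was higher in each, at 1.52 ± 0.519 RPKM in Irf3KO against 0.917 ± 0.165 RPKM in WT (SD, n = 3 each; log2 fold changes -0.57 ± 0.26 and 0.38 ± 0.19, limma adjusted p = 0.556 each). Among the genes that overlapped, Gtf2b, a general transcription factor beyond Gbp2, stood at 20.2 ± 4.84 RPKM in Irf3KO and 22.5 ± 2.62 RPKM in WT, and Lrrc8b, a volume-regulated anion channel subunit beyond Gbp6, at 3.07 ± 1.27 RPKM in Irf3KO and 3.79 ± 0.446 RPKM in WT (SD, n = 3 each).

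Markers of 2 cell types separated the genotypes as the Gbp members did. The T and NK cell list had 2 of 11 genes in the table, and their sum was 1.64 to 3.55 RPKM in Irf3KO against 5.18 to 5.75 RPKM in WT. Trac, the constant segment of the T cell receptor alpha chain, stood at 2.29, 0.94 and 2.62 RPKM in Irf3KO against 4.36, 4.43 and 3.85 RPKM in WT, and Cd4 at 0.69, 0.7 and 0.93 RPKM in Irf3KO against 1.34, 1.32 and 1.33 RPKM in WT. The other T and NK cell genes, Ifng included, are not analysed here. Fibroblast markers (6 of 6) summed to 3034 to 4232 RPKM in Irf3KO against 5023 to 5445 RPKM in WT. The sums of neutrophil (4 of 6 in the table), dendritic cell (4 of 6), endothelial (6 of 6) and smooth muscle and pericyte markers (6 of 6) overlapped, at 40.5 to 54.7, 9.23 to 27.4, 147 to 268 and 631 to 779 RPKM in Irf3KO against 32.1 to 88.5, 11.0 to 17.9, 209 to 296 and 699 to 1144 RPKM in WT. No marker held in the table was at 0 in any library, and limma called 0 of 44 marker genes tested (5 at an unadjusted p under 0.05). These 5 were counted in either direction, and 5.96% of all genes were lower at that unadjusted threshold. The part of cell content in the Gbp differences was not tested.

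**Figure D3:**
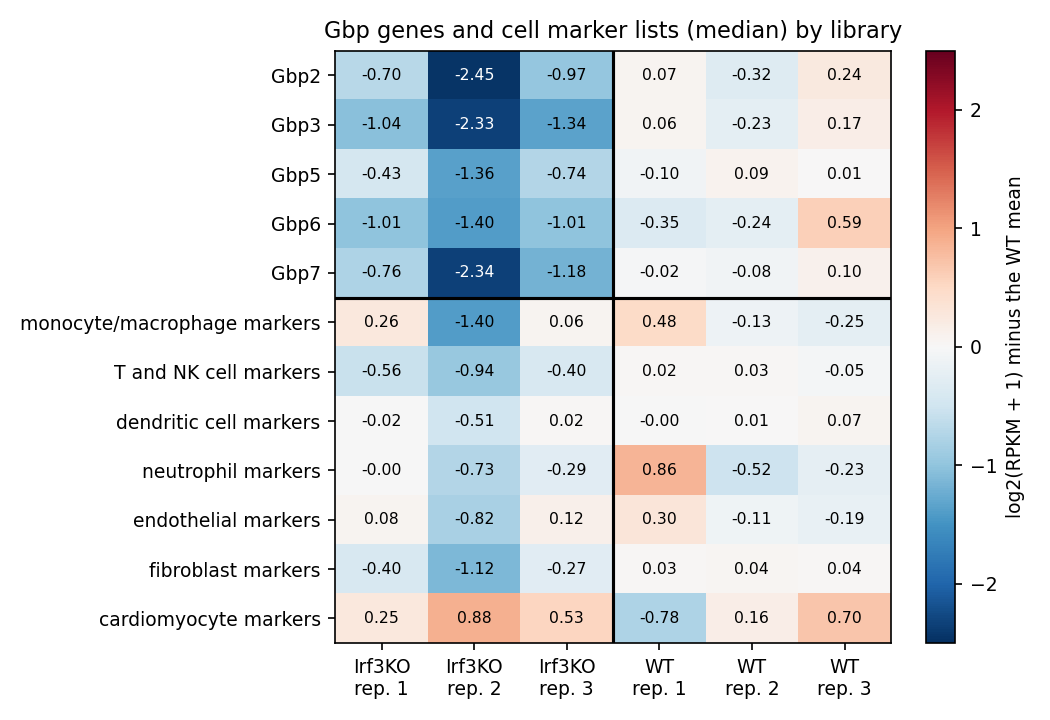
log2(RPKM + 1) minus the WT mean for the 5 members (upper rows) and the median of 7 marker lists (lower rows), in Irf3KO libraries (left 3 columns) and WT libraries (right 3 columns); blue is below and red above the WT mean. The members are below 0 in each Irf3KO library, at -2.45 for Gbp2 in replicate 2, where macrophage markers stand at -1.40.

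Genes with roles around the guanylate-binding proteins were read from 6 lists. The immunity-related GTPases, smaller interferon-inducible GTPases that act with Gbp proteins on pathogen vacuoles, had a median log2 fold change of -1.40 over 7 tested genes. Ifi47 fell, at 2.17 ± 1.07 RPKM in Irf3KO against 10.2 ± 0.576 RPKM in WT (SD, n = 3 each; log2 fold change -1.88 ± 0.28, limma adjusted p = 0.0329), the 1 gene called of 7, of which 6 were lower at an unadjusted p under 0.05. Of all genes, 0.356% were called lower and 5.96% were lower at an unadjusted limma p under 0.05. Irgm1 was at -1.61 ± 0.28 and Tgtp2 at -1.12 ± 0.20 (limma adjusted p = 0.0707 and 0.0754). Without Irf3KO replicate 2, 4 were called lower (Ifi47, Irgm1, Irgm2 and Igtp), beside 0.534% of all genes. Without Irf3KO replicate 1, 2 of these GTPases were called lower, and without Irf3KO replicate 3 or any 1 WT library 0 were.

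Of interferon ligands, receptors and signalling genes, 1 of 19 tested was called lower, beside 0.356% of all genes. At an unadjusted limma p under 0.05, 6 of the 19 were lower, beside 5.96% of all genes. In 7 of the 19 each Irf3KO library was below each WT library, beside 11.8% of all genes. Irf7, the factor that amplifies interferon production, fell to 5.29 ± 0.832 RPKM in Irf3KO against 32.6 ± 8.07 RPKM in WT (SD, n = 3 each; log2 fold change -2.40 ± 0.23, limma adjusted p = 0.00367). Nlrc5, the activator of MHC class I genes, was at -1.14 ± 0.21 (limma adjusted p = 0.0814). It fell without Irf3KO replicate 2 (limma adjusted p = 0.0305), where 3 of 19 were called lower, beside 0.534% of all genes. Of receptor and kinase genes, Ifngr1 was at -0.31 ± 0.27 and Ifngr2 at 0.22 ± 0.20 for the interferon gamma receptor, Ifnar1 at -0.55 ± 0.32 for the type I receptor and Jak1 at -0.36 ± 0.29 (limma adjusted p = 0.607, 0.615, 0.556 and 0.582). Irf1, which drives Gbp transcription in the interferon gamma response, was at -0.42 ± 0.25 (limma adjusted p = 0.556). Its groups did not overlap, at 5.9 to 11.48 RPKM in Irf3KO and 11.64 to 13.54 RPKM in WT. Stat2 was at -1.05 ± 0.31 and Irf9 at -0.85 ± 0.26 (limma adjusted p = 0.402 and 0.445), both also without overlap between groups. Over the 19 genes the median was -0.36, and -0.16 without Irf3KO replicate 2.

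Inflammasomes and pyroptosis lie downstream of Gbp proteins, and 13 genes of this list were tested. Zbp1, a nucleic acid sensor of cell death that interferon induces, fell to 1.82 ± 0.394 RPKM in Irf3KO against 9.38 ± 2.24 RPKM in WT (SD, n = 3 each; log2 fold change -1.86 ± 0.23, limma adjusted p = 0.0132). It was the 1 gene called of the 13, beside 0.356% of all genes called lower. In this list 0 were called without Irf3KO replicate 3, WT replicate 1 or WT replicate 3. At an unadjusted limma p under 0.05, 3 of the 13 were lower, beside 5.96% of all genes. Il18 and Nlrc4 were at -0.95 ± 0.35 and -0.57 ± 0.23 (limma adjusted p = 0.556 each). Casp4, the caspase that binds lipopolysaccharide, was at -0.38 ± 0.23, Gsdmd, the pore-forming protein it cleaves, at -0.27 ± 0.23, and Nlrp3 at -0.09 ± 0.26 (limma adjusted p = 0.556, 0.599 and 0.865). Over the 13 genes the median was -0.38.

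For genes of autophagy conjugation and vacuole targeting, which in mouse cells direct Gbp proteins to membranes, limma called 0 of 15 (1 had an unadjusted p under 0.05), and the median was 0.06. Trim21, an interferon-induced ubiquitin ligase, was at -0.84 ± 0.35, Map1lc3a at 1.09 ± 0.49 and Lgals8, a galectin that marks broken vacuoles, at -0.55 ± 0.37 (limma adjusted p = 0.556, 0.556 and 0.559). Enzymes of protein prenylation, which anchor Gbp2 and Gbp5, had a median of 0.04 over 5 genes, 0 of them called by limma (0 had an unadjusted p under 0.05). Pggt1b, of the enzyme that adds geranylgeranyl groups, was at -0.68 ± 0.31, Fntb, of farnesyltransferase, at 0.47 ± 0.22 and Rce1 at 0.19 ± 0.22 (limma adjusted p = 0.556, 0.556 and 0.69). The atlastins, GTPases related to the Gbp family that shape the endoplasmic reticulum, were listed with Gbp4 and Gbp9. Of these 5 genes limma called 0, at a median of -0.60. The 2 with an unadjusted p under 0.05 were Gbp4 and Gbp9, and no atlastin was among them. Atl1 was at -0.28 ± 0.18, Atl3 at -0.60 ± 0.39 and Atl2 at -0.16 ± 0.27 (limma adjusted p = 0.556, 0.556 and 0.779). The differences of the atlastins from the Gbp members were not tested.

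**Figure D4:**
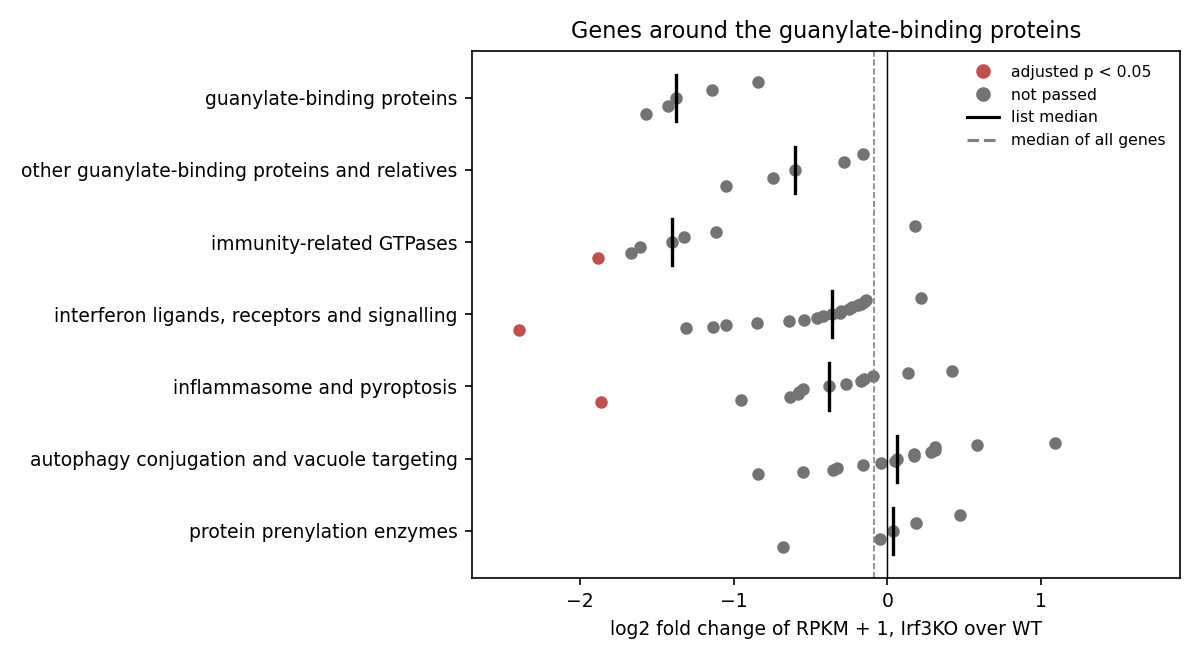
log2 fold change of RPKM + 1, Irf3KO over WT, of each tested gene in the Gbp set and the 6 lists (points; red, adjusted p under 0.05), with the median of each list (black bar) and of all genes (dashed line, -0.09). The medians of the Gbp members and of the immunity-related GTPases lie at -1.37 and -1.40, and those of the prenylation and autophagy lists close to 0.

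Genes with the most similar pattern over the 6 libraries were found by the root mean square difference between profiles of log2(RPKM + 1), each centred on its own mean. Among the genes nearest to the mean profile of the 5 members were D14Ertd668e (0.104), Igtp (0.107), Eif2ak2 (0.111), which encodes the RNA-activated kinase PKR, and Capn6 (0.145). Sfxn2, Herc6, Trim30d, Ddx58 and Thbs3 were at 0.146 to 0.170. The members themselves lay 0.151 (Gbp7), 0.166 (Gbp3), 0.212 (Gbp2), 0.269 (Gbp5) and 0.312 (Gbp6) from their mean profile. Each member is part of that mean, which makes its distance smaller by construction. The median over the genes compared, all outside the family, was 0.687. Parp14 was nearest to both Gbp2 (0.175) and Gbp7 (0.0796), and Irgm2 to Gbp3 (0.115). Next for Gbp2 were Slfn5 and Cd2ap (0.217 each), for Gbp7 Eif2ak2 (0.146) and Slfn5 (0.153), and for Gbp3 Ifi204 (0.131) and 4833420G17Rik (0.148). Gbp5 was nearest to D3Ertd254e (0.0643), Mysm1 (0.0665) and Kif5b (0.0667), and to Gbp4 within the family (0.0815). Gbp6 was nearest to F830016B08Rik (0.11), Tgtp2 (0.139) and Abca6 (0.149). This measure gives weight to the size of the difference as well as to its shape. None of the genes named here as nearest was called over all genes with all 6 libraries.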

How the data were processed

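Infarct RNA was sequenced in 3 Irf3KO and 3 WT libraries, per the labels. The authors deposited RPKM, rounded to 2 decimals, beside gene lengths. The submitters' processing notes name STAR 2.3.0, HTSeq 0.6.0, SAMtools 0.1.18.0, Picard 1.100, edgeR 3.8.6 and NCBIM37 (mm9), without settings. A gene name split over lines was repaired at 5 places.

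Depth was read as the library size at which low RPKM values gave whole reads: 100% of 34 to 163 values per library fell within 0.2 reads of one. With RPKM alone, no count test was made. The 12913 genes averaging 1 RPKM or more were fitted on log2(RPKM + 1) in limma 3.58.1 (R 4.3.3; eBayes, trend, two-sided). The fit was tested on simulated data. Libraries correlated at 0.878 to 0.989, and no 2 were identical.

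Members, gene lists and the rule for named genes (members, Irf3, called genes and the 3 smallest p of each list, nearest patterns) were chosen with earlier results of these data known; other genes were named for their role after their values were seen. A gene that the rule names is not reported here. Replicate numbers were not taken as pairs. Alternatives were other pseudocounts, filters, scalings, weights, a replicate block and leaving out each library. Sequences came from RefSeq (GRCm38.p6) and GENCODE M21.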

Additional observations from a re-analysis of the deposited data

How the results depend on the processing

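Each of the 5 members kept a log2 fold change below 0 in all 15 alternatives (14 for Gbp5 and Gbp6, which a filter at a mean of 5 RPKM removed). The count of members called, 0 with all libraries, was 1 after quantile normalization (Gbp3, -1.44, adjusted p = 0.0459), 5 with array weights, 4 with the replicate block and 0 to 1 when 1 library was left out. Leaving out a library put the log2 fold change between -1.71 and -0.83 for Gbp2, -1.84 and -1.19 for Gbp3, -1.05 and -0.59 for Gbp5, -1.31 and -0.85 for Gbp6 and -1.76 and -0.97 for Gbp7. Array weights were estimated gene by gene, because the default method did not converge on these data. They ran from 0.103 (Irf3KO replicate 2) to 6.36 (Irf3KO replicate 3). They gave -0.75, -1.16, -0.77, -0.89 and -1.09 for Gbp2, Gbp3, Gbp5, Gbp6 and Gbp7 (limma adjusted p 2.60e-04 to 0.00865). They called 1751 genes lower and 1209 higher, against 46 and 19 without weights. With the replicate block Gbp2, Gbp3, Gbp6 and Gbp7 passed at -1.37, -1.57, -1.14 and -1.43 (adjusted p = 0.00627, 0.00125, 0.0109 and 0.00589) and Gbp5 did not (-0.84, adjusted p = 0.155). The block called 187 of the 12913 genes lower and 63 higher, against 46 and 19 without it. Deviations of same-numbered libraries correlated at 0.129, -0.098 and -0.102, so the numbers were not taken as pairs.

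Genes called lower and higher numbered 22 and 12 with the filter at a mean of 5 RPKM, 75 and 29 after quantile normalization, 187 and 63 with the replicate block, and 15 to 69 and 6 to 27 with 1 library left out. Calls lower among the immunity-related GTPases (1) became 0 with a pseudocount of 0.1, 3 with median-of-ratios scaling, 4 after quantile normalization, 6 with array weights or the replicate block and 0 to 4 with 1 library left out. Calls lower among interferon ligands, receptors and signalling genes (1) became 2 after quantile normalization, 5 with array weights, 3 with the replicate block and 1 to 3 with 1 library left out. Calls lower in the inflammasome list (1) became 5 with array weights, with 2 higher, and 0 to 1 with 1 library left out. Array weights also called 1 autophagy gene lower and 1 higher, 1 prenylation gene lower and 3 genes lower of the list with Gbp4 and Gbp9. Median-of-ratios scaling moved the median of all genes to 0.02, against -0.09 as deposited. The causes of these shifts were not tested. The smallest member value, Gbp6 in Irf3KO replicate 2, rested on about 43 reads, and 49.9% of the 50-base runs of Gbp6 are shared with other copies.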
